A study of Mus musculus with 12 samples.

Results

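The SR proteins and the heterogeneous nuclear ribonucleoproteins (hnRNPs) are the 2 families of RNA-binding proteins described here in mouse splenic CD8 T cells. Their genes were taken as all probe sets whose only gene symbol in the platform annotation begins with Srsf and a digit, or with Hnrnp. This rule uses no measured value and found 91 probe sets of 45101, 33 for Srsf and 58 for Hnrnp symbols. They stand for 29 genes of 18193, of which 10 are Srsf genes and 19 are Hnrnp genes. A further 7 probe sets that carry one of these symbols beside another gene were left out.

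SR proteins have RNA recognition motifs and a tail rich in arginine and serine, bind exonic enhancers and recruit the spliceosome to nearby splice sites. The hnRNPs coat nascent RNA, and many of them silence exons by competing with SR proteins or by looping RNA out, while some also act in mRNA export, stability and translation. In T cells both families are known for their part in the alternative splicing of Ptprc, which encodes CD45, and several of their genes make alternative transcripts, some with a poison exon that leads to decay of the mRNA, through which the proteins control their own level.

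The mice were male and carried Cre under the Cd4 promoter, which is active in developing T cells, and were of 2 genotypes at Scap. The littermate controls, called WT below, were Cd4-Cre/Scap+/+, and the mice called KO were Cd4-Cre/Scapfl/fl, so that loss of Scap was directed to T cells. Scap is the escort protein of the SREBP transcription factors. CD8 T cells were enriched from spleen with a kit and used quiescent (T0) or after activation for 6 h with plate-bound antibody to CD3 and soluble antibody to CD28 (T6), with 3 Affymetrix arrays in each of the 4 groups. The design text counts 3 mice per genotype, does not tie the 6 arrays of a genotype to mice, and the mice's age is not given in the sources used here. All controls thus carried Cre as well.

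Levels below are log2(signal + 16) of deposited, scaled signal intensities, and differences are on that same scale. The brightest probe set on average stands for each gene, which was called at an adjusted p under 0.05 (limma, Benjamini-Hochberg) in a fit over all 13158 genes that passed a filter on low signal. The level of a probe set is not comparable with that of another. All 29 genes passed the filter, and 28 of them lay above percentile 40 of the array, the limit of the filter, on all 12 arrays. The exception, Srsf12, did so on 6 arrays. Of the 91 probe sets 88 were tested; 1458139_at for Hnrnpc, 1445594_at for Hnrnpl and 1457136_at for Srsf1 were too dim, with mean levels of 5.18, 5.04 and 5.10.

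Arrays of a group correlated across the 13158 tested genes at 0.965 to 0.984. The Scap probe set checks the deletion only in part, since its position relative to the floxed exons was not examined: it stood at 11.26 ± 0.25 (SD, n = 3) in WT T0, 11.57 ± 0.02 in WT T6, 11.01 ± 0.23 in KO T0 and 11.10 ± 0.04 in KO T6, and neither genotype difference was called (-0.25, adjusted p = 0.593 at T0; -0.47, adjusted p = 0.273 at T6). The CD8 T cell markers were bright on every array, with summed signals of 51087 to 122356 over 8 genes, but they moved with the comparisons: 5 of the 8 were called on activation in each genotype, with medians of -0.43 in WT and -0.56 in KO, and 0 of the 8 were higher in KO than in WT at either time, with medians of -0.25 at T0 and -0.30 at T6. Group means of Cd4 (4.57 to 5.04) and of the NK cell marker Ncr1 (4.81 to 5.70) were low, while Klrk1, which CD8 T cells also express, was at 7.93 to 8.32. The other CD4 T cell markers were Foxp3, at 5.56 to 6.24, and Zbtb7b, at 6.17 in WT T0, 7.36 in KO T0 and 6.02 and 6.20 in WT T6 and KO T6. The summed signal of the 3 was 204 to 239 in KO T0 against 115 to 137 in WT T0 and overlapped at T6, and neither Foxp3 nor Zbtb7b was called. Markers of other cells differed between the groups. All 11 tested myeloid markers were lower after activation in both genotypes, with 10 called in WT and 9 in KO, and their summed signal went from 14850 to 19975 in WT T0 to 1170 to 2588 in WT T6. In KO the 10 B cell, 11 myeloid, 11 proliferation and 3 erythroid markers tested were all higher than in WT at both times, with 1 of these differences called (myeloid, T6). The summed B cell signal was 10040 to 20634 in KO T0 against 4912 to 9650 in WT T0. The KO arrays with replicate number 2 had the highest erythroid sums of their groups (37815 and 35627) and the highest proliferation sums (41746 and 44429), and the lowest CD8 sums (83931 and 51087). In bulk RNA fewer cells of a type and less RNA per cell cannot be told apart, and the part of these markers in the results below was not tested.

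The first comparison asked what 6 h of activation did to the splicing factor genes in WT cells. Their response was small: the median change of the 29 genes was 0.08, the median size of change without regard to sign was 0.23 against 0.30 for all genes, and 28 genes lay between -0.44 and 0.42. Their probe sets were bright, with a median level of 13.2 beside 8.98 over all tested genes, and 28 of the 29 lay above that median. The sizes and shares over all genes, here and below, thus come from genes of mostly lower signal and were not matched on signal. In all 6 genes were called, 3 that rose (Hnrnpab, Srsf9, Hnrnpu) and 3 that fell (Hnrnph3, Hnrnpa1, and Srsf12, which passed the filter through its T0 arrays). These 6 are 20.7% of the genes, beside 25.1% of all genes tested (11.3% higher and 13.8% lower), so the share called was near the background. The WT T0 and T6 arrays did not overlap for 17 genes, 12 higher and 5 lower at T6, or 58.6% beside 42.8% of all genes (19.2% higher and 23.6% lower). An unadjusted p under 0.05 was reached by 12 of the 29, beside 36.5% of all genes. Signs were uneven, with 20 of the 29 changes positive beside 44.1% of all genes. Changes this small depend on the scaling: the median over all genes was -0.06 as deposited and 0.05 after centring each array on its median, under which the calls among all genes were 1907 higher and 1141 lower in place of 1492 and 1810. With that centring 6 splicing factor genes rose and 1 fell in WT, and with quantile normalization 2 rose and 4 fell. Without WT T0 replicate 2, WT T6 replicate 1 or WT T6 replicate 3, 3 genes were called.

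Among the risers, Hnrnpab encodes an RNA-binding hnRNP closely related to hnRNP D. Its WT arrays read 13.66, 13.69 and 13.81 at T0, and 14.16, 14.11 and 14.17 at T6. The KO arrays read 13.84, 13.90 and 13.59 at T0, and 14.09, 13.98 and 14.02 at T6. Every T6 array lay above every T0 array in each genotype. The rise was 0.42 in WT (SE 0.10, 1.34-fold, adjusted p = 0.0103), and the KO difference of 0.26 missed the threshold (adjusted p = 0.0932).

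Srsf9, an SR protein with a short arginine-serine tail, read 11.70, 11.45 and 11.61 in WT T0 and 11.94, 11.89 and 11.92 in WT T6. The KO arrays read 11.79, 11.77 and 11.66 at T0 and 11.91, 11.84 and 11.92 at T6. The T0 and T6 arrays were again apart in both genotypes, and KO T0 lay nearer to T6 than WT T0 did. The WT rise was 0.33 (SE 0.09, 1.26-fold, adjusted p = 0.0194), and the KO difference was 0.15 (adjusted p = 0.279).

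Hnrnpu encodes the scaffold attachment factor that binds nuclear RNA and chromatin. It read 13.79, 13.77 and 13.82 in WT T0 and 14.04, 14.01 and 14.08 in WT T6. In KO it read 13.79, 13.76 and 13.68 at T0 and 14.00, 13.87 and 13.95 at T6. Arrays of both genotypes separated by time, and the WT rise was 0.25 (SE 0.08, 1.19-fold, adjusted p = 0.0368) beside 0.20 in KO (adjusted p = 0.103). This WT call was kept in 13 of 24 alternatives, with an adjusted p of up to 0.132. In the limma fit over all tested probe sets the same probe set was not called (adjusted p = 0.0582).

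Among the genes that fell, Hnrnph3 belongs to the hnRNP H and F group, which binds runs of guanines. It read 10.69, 10.76 and 10.72 in WT T0 and 10.31, 10.16 and 10.39 in WT T6. Its KO values were 10.73, 10.79 and 10.67 at T0 and 10.42, 10.32 and 10.42 at T6. No T6 array of either genotype reached a T0 array. The gene fell by 0.44 in WT (SE 0.09, 1.36-fold, adjusted p = 0.00457) and by 0.34 in KO (SE 0.09, 1.27-fold, adjusted p = 0.0177), and it was the 1 gene called in both genotypes. With replicate number as a block the KO fall was not called (adjusted p = 0.0588). Its relatives Hnrnph1 (-0.24 in WT, adjusted p = 0.0771; -0.20 in KO, adjusted p = 0.158), Hnrnph2 (0.04 and 0.20) and Hnrnpf (0.05 and -0.11) were not called, although the WT and the KO arrays of Hnrnph1 also separated by time.

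Hnrnpa1, the best known exon silencer of the family, read 13.53, 13.61 and 13.49 in WT T0 and 13.21, 13.13 and 13.25 in WT T6. KO arrays gave 13.48, 13.31 and 13.67 at T0 and 13.46, 13.17 and 13.37 at T6. The groups were apart in WT and overlapped in KO. It fell by 0.34 in WT (SE 0.11, 1.27-fold, adjusted p = 0.0495), just inside the threshold and called in 11 of 24 alternatives, and the KO difference was -0.15 (adjusted p = 0.390). The same probe set was not called in the limma fit over all tested probe sets (adjusted p = 0.0626). The gene's other probe sets, 1455305_x_at and 1455740_at, changed by -0.04 and -0.07 in WT and were not called, so the fall is that of 1436549_a_at alone. Hnrnpa1 has processed copies in the genome, so its signal may not come from this gene alone.

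Srsf12, which in human cells is known as an antagonist of other SR proteins, was dim. It read 6.60, 6.84 and 6.45 in WT T0 and 4.30, 5.83 and 5.23 in WT T6. The KO arrays read 6.42, 5.76 and 6.40 at T0 and 5.41, 5.38 and 5.56 at T6. Percentile 40 of the arrays lay at 5.64 to 5.87, so 3 WT T0, 2 KO T0, 1 WT T6 and 0 KO T6 arrays were above it. It fell by 1.51 in WT (SE 0.33, adjusted p = 0.00803), the largest change of the 29 genes, and the size of a fold at this signal is not well measured. The filter asked for 3 or more arrays above that percentile, which Srsf12 met through its T0 arrays, where it was higher. Its fall is thus not independent of the filter that admitted it. The KO difference was -0.74 (SE 0.33, adjusted p = 0.149).

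**Figure D1:**
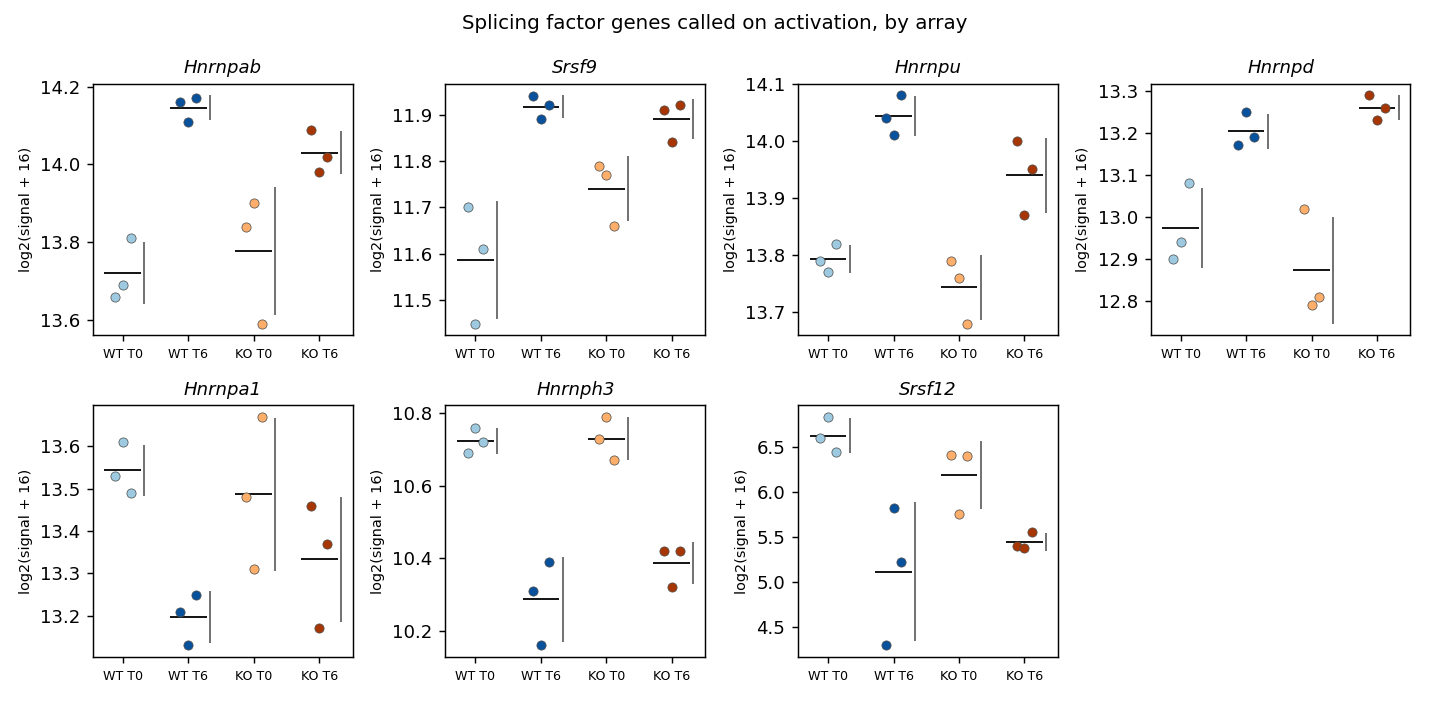
Levels of the 7 genes called on activation in WT, KO or both, as log2(signal + 16), with a point per array in each of the 4 groups, a line at the mean and a bar of 1 SD beside it (n = 3; the axes differ between panels and do not start at 0). Hnrnpab, Srsf9, Hnrnpu and Hnrnpd lay higher on every T6 array than on every T0 array of the same genotype, Hnrnph3 and Srsf12 lay lower, and Hnrnpa1 overlapped in KO.

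The promoter windows of Hnrnpab, with the largest called rise, of Srsf12, with the largest called fall, and of Hnrnph3, added after its values were seen because it fell in both genotypes, are printed to show how the starts of genes that moved in opposite directions read. They are RefSeq windows of build GRCm38.p6 from 250 bases before to 50 bases after the start, for Hnrnpab at chr11:51606832-51607131 on the minus strand, for Hnrnph3 at chr10:63023800-63024099 on the minus strand and for Srsf12 at chr4:33209022-33209321 on the plus strand. Capitals mark matches, on either strand, to any of 5 motifs. The Y box motif was CCAAT, the E box motif was CACGTG, the ETS motif was CCGGAAGT, the cyclic AMP response motif was TGACGTCA and the TATA box motif was TATAAA.
Hnrnpab: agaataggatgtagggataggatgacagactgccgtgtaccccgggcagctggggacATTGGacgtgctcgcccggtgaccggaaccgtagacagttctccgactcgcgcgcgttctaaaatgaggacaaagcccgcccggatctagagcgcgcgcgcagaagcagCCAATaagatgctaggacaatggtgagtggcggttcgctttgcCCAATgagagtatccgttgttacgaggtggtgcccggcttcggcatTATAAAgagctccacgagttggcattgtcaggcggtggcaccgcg
Hnrnph3: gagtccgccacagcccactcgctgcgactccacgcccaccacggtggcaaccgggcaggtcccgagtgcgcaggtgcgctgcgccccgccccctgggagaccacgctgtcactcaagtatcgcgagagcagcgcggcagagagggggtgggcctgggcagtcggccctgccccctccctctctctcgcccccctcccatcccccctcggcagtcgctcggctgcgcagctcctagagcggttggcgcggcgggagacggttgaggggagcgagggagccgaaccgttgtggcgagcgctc
Srsf12: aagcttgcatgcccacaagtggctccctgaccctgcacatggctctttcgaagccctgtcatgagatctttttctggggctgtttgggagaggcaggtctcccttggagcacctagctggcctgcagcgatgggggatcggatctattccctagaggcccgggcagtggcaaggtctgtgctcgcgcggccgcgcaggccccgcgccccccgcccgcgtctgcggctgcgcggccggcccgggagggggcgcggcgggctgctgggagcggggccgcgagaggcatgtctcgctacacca

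The Hnrnpab window held CCAAT at -193 (as ATTGG), -84 and -41 from the start, and TATAAA at 5, within the transcribed bases. The windows of Hnrnph3 and Srsf12 held none of the 5 motifs. Those of Srsf9 and Hnrnpu, which rose in WT, held none either, and that of Hnrnpa1, which fell in WT, held 4 CCAAT matches. The motifs thus did not separate the called genes by direction. RefSeq windows were at hand for 27 of the 29 genes, 39 windows in all, and for neither Hnrnpll nor Hnrnpul2. CCAAT was in 20 of the 39 windows (51.3%) beside 37.4% of all 32851 windows, CCGGAAGT in 6 (15.4%) beside 3.89%, CACGTG in 4 (10.3%) beside 7.15%, TATAAA in 4 (10.3%) beside 13.6%, and TGACGTCA in 0 beside 1.79%. The windows were also richer in G and C, with a median of 68.3% beside 52.7% of all windows, and some genes have several overlapping windows. A match is a run of letters and not a tested binding site.

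In KO cells activation gave fewer calls among these genes. Hnrnpd rose and Hnrnph3 fell, which is 6.90% of the 29 genes beside 20.9% of all genes (10.4% higher and 10.4% lower). The KO T0 and T6 arrays did not overlap for 9 genes, 5 higher and 4 lower, or 31.0% beside 36.5% of all genes (18.9% higher and 17.6% lower). The median change was 0.06 and the median size 0.15, beside 0.28 for all genes. An unadjusted p under 0.05 was reached by 6 of the 29, beside 32.7% of all genes. Without the KO arrays of replicate number 2, or when the KO arrays were fitted without the WT arrays, 0 genes were called, and without KO T0 replicate 2 or 3 alone 1 was. Same-numbered KO arrays deviated together, and with replicate number as a block Hnrnpd alone was called.

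Hnrnpd encodes AUF1, which binds AU-rich elements and acts in mRNA decay. It read 13.02, 12.79 and 12.81 in KO T0 and 13.29, 13.23 and 13.26 in KO T6. In WT it read 12.90, 12.94 and 13.08 at T0 and 13.17, 13.25 and 13.19 at T6. Every T6 array exceeded every T0 array in both genotypes. It rose by 0.39 in KO (SE 0.09, 1.31-fold, adjusted p = 0.0140), and the WT difference was 0.23 (SE 0.09, adjusted p = 0.10).

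Side by side, the WT and KO changes, which share no array, had the same sign for 26 of the 29 genes (89.7%, beside 78.6% of all genes). Across the genes they correlated at a Pearson's r of 0.85 and a Spearman's rho of 0.65, and at 0.74 and 0.61 over the 28 genes without Srsf12. Genes are not independent replicates, and these values describe the table only. That a gene was called in 1 genotype does not show a difference between genotypes: the test of that difference, the interaction, called 0 of the 29 genes and 0 of all genes (0%), and 0 of the 29 reached an unadjusted p under 0.05, beside 4.59% of all genes. The interaction ranged from -0.29 for Hnrnpll (95% interval -0.77 to 0.20) to 0.77 for Srsf12 (-0.27 to 1.81).

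**Figure D2:**
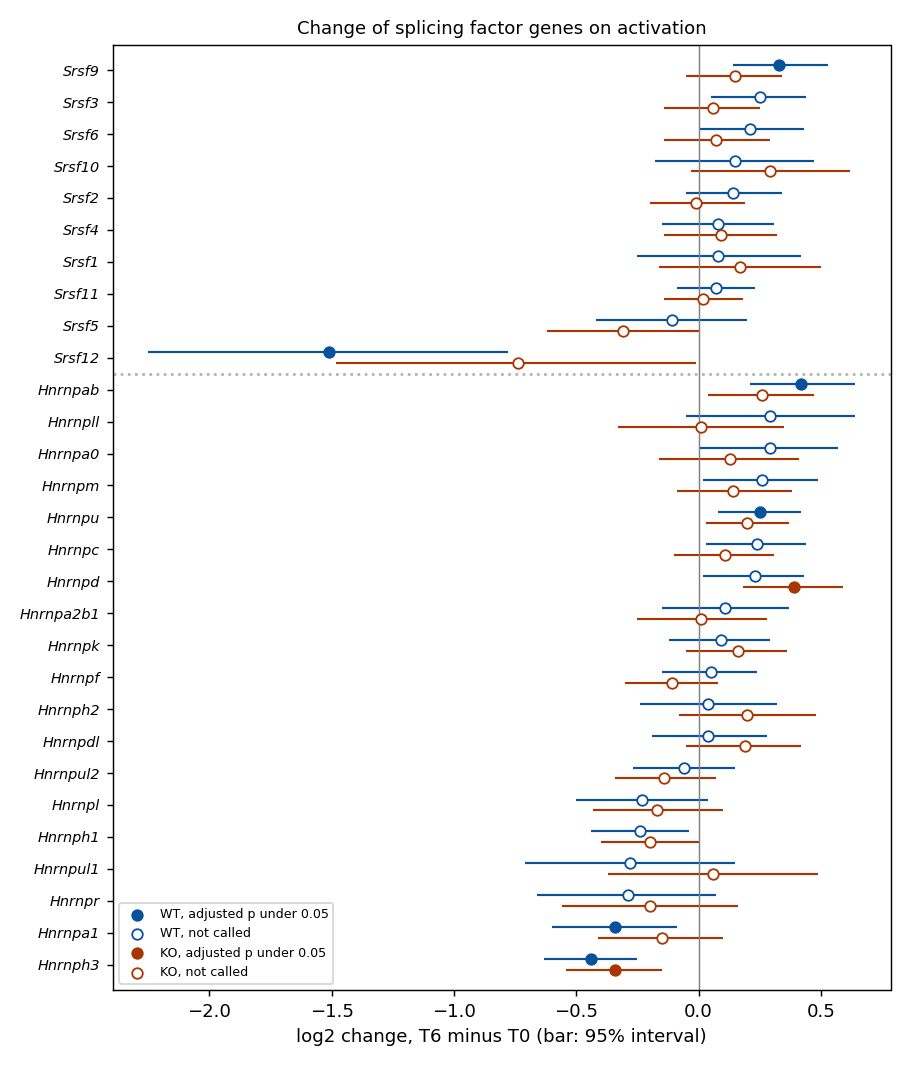
Change of each of the 29 genes from T0 to T6 on the log2 scale in WT (blue) and KO (red), with the 95% interval as a bar and called genes filled (n = 3 arrays per group). All changes but those of Srsf12 lie between -0.44 and 0.42; Srsf12 stands apart at -1.51 in WT and -0.74 in KO, with the widest intervals.

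The remaining SR genes did not pass the test in either genotype. Srsf3, a small SR protein that also acts in mRNA export, differed by 0.25 in WT (adjusted p = 0.0658) and by 0.06 in KO. Srsf1 and Srsf2, the most studied splicing enhancer proteins, differed by 0.08 and 0.14 in WT and by 0.17 and -0.01 in KO. Srsf4, Srsf6, Srsf10 and Srsf11 lay between 0.07 and 0.21 in WT and between 0.02 and 0.29 in KO. Srsf10 is known to act as a splicing repressor once dephosphorylated. Beside Srsf12, Srsf5 was the SR gene with negative values in both genotypes, at -0.11 in WT and -0.31 in KO (adjusted p = 0.150), and its KO arrays did not overlap. Its WT T0 arrays read 14.26, 13.73 and 13.73, and without the first of them they lay within the WT T6 range of 13.70 to 13.92.

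Among the hnRNP genes that were not called in WT, Hnrnpll is the silencer of the variable Ptprc exons in activated and memory T cells. It read 11.06, 10.99 and 11.33 in WT T0, and 11.49, 11.44 and 11.34 in WT T6. The KO arrays read 11.20, 11.71 and 11.24 at T0 and 11.24, 11.56 and 11.39 at T6. The WT arrays separated by a narrow margin and the KO arrays overlapped, with differences of 0.29 (adjusted p = 0.202) and 0.01 (adjusted p = 0.977). Hnrnpl, which binds CA repeats and acts on the same exons, differed by -0.23 in WT and -0.17 in KO. Hnrnpc, which binds uridine tracts, differed by 0.24 in WT (adjusted p = 0.0903) and 0.11 in KO, Hnrnpm by 0.26 (adjusted p = 0.105) and 0.14, and Hnrnpa0 by 0.29 (adjusted p = 0.132) and 0.13. The 3 genes had higher values on every T6 than on every T0 array in WT and overlapped in KO. The poly(C)-binding Hnrnpk, with Hnrnpa2b1, Hnrnpdl and Hnrnpul2, lay between -0.06 and 0.11 in WT and between -0.14 and 0.19 in KO. Hnrnpr was at -0.29 and -0.20, and Hnrnpul1 at -0.28 and 0.06, with overlapping arrays.

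One value per gene does not show every movement, since 20 of the 29 genes have several probe sets and 19 have several that were tested. Of the 88 tested probe sets, 24 were called in WT (15 rose, 9 fell), or 27.3%, beside 22% of the 24543 probe sets tested in all (9.84% higher and 12.2% lower). In KO 19 were called (13 rose, 6 fell), or 21.6%, beside 19.6% (8.79% higher and 10.8% lower). The balance of directions moved with the scaling: median centring gave 23 rises and 4 falls in WT and 13 and 3 in KO, and quantile normalization 13 and 11 in WT and 11 and 8 in KO. The KO count was 9 to 12 without KO T0 replicate 1 or any single KO T6 array. Of the 24 and 19, 11 were called in both genotypes, and the share over all probe sets was not examined. In each genotype, 12 of the 19 genes had probe sets with changes of both signs, however small and whether called or not. Called probe sets of both directions were found in 2 of the genes in WT and 1 in KO. The shares over all genes were not examined, so these counts do not mark out the splicing factor genes. Probe sets of a gene can report different ends or transcript forms, and those with names in _s_at or _x_at can also match related transcripts. Which part of each transcript a probe set covers was not examined.

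Srsf3 was the clearest case, with probe sets called in both directions in both genotypes. Its representative 1416150_a_at read 13.12, 13.06 and 13.20 in WT T0 and 13.37, 13.33 and 13.42 in WT T6. Its probe set 1438215_at read 10.47, 10.75 and 10.62 in WT T0 and 9.63, 9.69 and 9.64 in WT T6. The KO arrays of 1438215_at read 10.26, 10.51 and 10.55 at T0 and 9.32, 9.50 and 9.54 at T6. Thus 1438215_at was lower on all 6 T6 arrays than on any T0 array. It fell by 0.96 in WT (SE 0.12, adjusted p = 0.000348) and by 0.99 in KO (SE 0.12, adjusted p = 0.000334).

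In the opposite direction, the Srsf3 probe set 1416151_at read 9.25, 9.30 and 9.46 in WT T0 and 9.90, 9.84 and 9.83 in WT T6. In KO it read 9.41, 9.72 and 9.80 at T0 and 9.93, 10.06 and 10.11 at T6. All T6 arrays were above the T0 arrays of their genotype. It rose by 0.52 in WT (adjusted p = 0.0117) and by 0.39 in KO (adjusted p = 0.0434, or 0.0521 with the replicate block). The probe set 1434512_x_at rose by 0.88 in WT (adjusted p = 0.0133) and differed by 0.01 in KO (adjusted p = 0.985), where its arrays spread from 10.89 to 11.66.

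**Figure D3:**
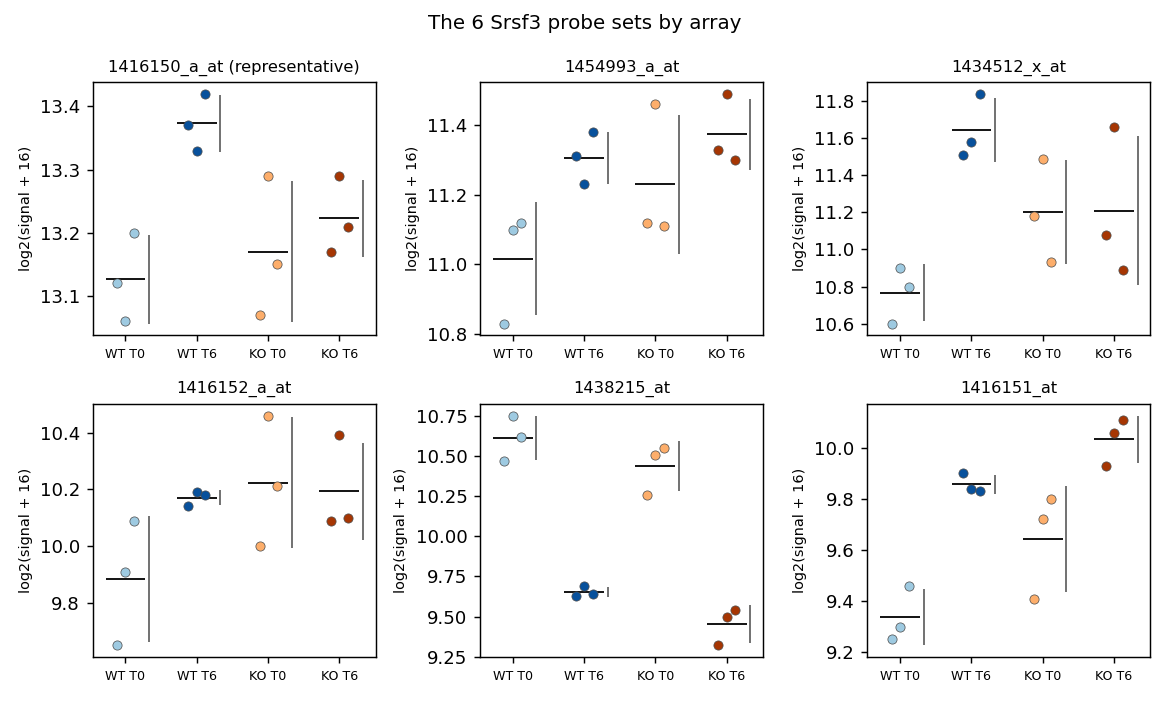
Levels of the 6 Srsf3 probe sets as log2(signal + 16), with a point per array, a line at the group mean and a bar of 1 SD (n = 3; the axes differ between panels and do not start at 0). The probe set 1438215_at drops from 10.26 to 10.75 at T0 to 9.32 to 9.69 at T6 in both genotypes, while 1416151_at is higher at T6 within each genotype.

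A test chosen after the values had been seen compared each further probe set with the representative of its own gene, array by array, in 1 fit over 11363 probe sets. In WT 8 of the 59 such probe sets of splicing factor genes departed from their gene's representative, 3 upwards and 5 downwards, or 13.6%, beside 5.16% of all (2.2% upwards and 2.96% downwards). In KO 7 departed, 3 upwards and 4 downwards, or 11.9%, beside 6.84% (2.24% upwards and 4.6% downwards). Probe sets that share a gene also share its representative, so these counts are not independent. The WT count was 4 without WT T0 replicate 3 or WT T6 replicate 1. The KO count was 2 without both KO arrays of replicate number 2, and 4 without WT T0 replicate 3 or any of KO T0 replicates 2 and 3 and KO T6 replicate 3. With the replicate block 2 were called in KO.

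The Srsf3 probe set 1438215_at had the lowest adjusted p in both genotypes and departed by -1.21 in WT (adjusted p = 0.000552) and by -1.04 in KO (adjusted p = 0.00176). For Srsf11, known as p54, 1430077_at read 10.18, 10.44 and 10.39 in WT T0 and 9.56, 9.63 and 9.68 in WT T6, while its KO arrays read 10.19, 10.25 and 10.13 and then 9.54, 9.48 and 9.75. It was lower at T6 on every array of both genotypes, and its departure was -0.79 in WT (adjusted p = 0.00414) and -0.62 in KO (adjusted p = 0.0118, or 0.052 with the replicate block). A further Srsf11 probe set, 1439095_at, departed by -0.64 in KO (adjusted p = 0.0335, or 0.063 with the block) and had a WT change of -0.05.

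For Hnrnpu, 1434390_at read 9.46, 9.60 and 9.57 in WT T0 and 10.58, 10.32 and 10.49 in WT T6. Its KO values were 9.54, 9.47 and 9.58 at T0 and 10.78, 10.48 and 10.64 at T6. The T6 arrays of both genotypes all exceeded the T0 arrays by more than the gene's representative moved. The rise was 0.92 in WT (SE 0.11, adjusted p = 0.000323) and 1.10 in KO (SE 0.11, adjusted p = 0.000126), and the departure was 0.67 (adjusted p = 0.00869) and 0.90 (adjusted p = 0.0021). In KO 1450849_at of the same gene departed by -0.49 (adjusted p = 0.0409, or 0.0773 with the replicate block).

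Srsf6, known as SRp55, showed a split between its representative 1448454_at, at 0.21 in WT, and its other 3 probe sets, which all fell in WT: 1416720_at by 0.59 (adjusted p = 0.00621), 1416721_s_at by 0.44 (adjusted p = 0.0374) and 1447898_s_at by 0.52 (adjusted p = 0.00588). All 3 departed from the representative in WT, by -0.80 (adjusted p = 0.0140), -0.65 (adjusted p = 0.0299) and -0.73 (adjusted p = 0.00569). In KO 1447898_s_at fell by 0.33 (adjusted p = 0.0484, or 0.0814 with the replicate block), and the others were at -0.28 and -0.19. When the gene was instead taken as the mean of its probe sets, Srsf6 was at -0.34 in WT (adjusted p = 0.0228), so its sign as a gene depends on this choice.

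Hnrnpdl, a relative of Hnrnpd, had 7 tested probe sets, with calls in both directions in WT. Of these 1420093_s_at rose by 0.53 (adjusted p = 0.00466), 1449039_a_at by 0.46 (adjusted p = 0.0249) and 1456698_s_at by 0.46 (adjusted p = 0.0340), while 1424252_at fell by 0.40 (adjusted p = 0.0115) and 1428225_s_at by 0.41 (adjusted p = 0.00964). Its representative 1424251_a_at stood at 0.04. In KO the first 3 rose by 0.72, 0.74 and 0.79 (adjusted p = 0.00094, 0.00262 and 0.00273) and 1428224_at by 0.57 (adjusted p = 0.0152), and the 2 that had fallen in WT were each at -0.24. The 1420093_s_at departure was 0.49 in WT (adjusted p = 0.0207) and 0.53 in KO (adjusted p = 0.0112, or 0.0529 with the replicate block). The arrays of 1420093_s_at read 11.91, 11.73 and 11.86 in WT T0, 12.37, 12.30 and 12.42 in WT T6, 11.71, 11.44 and 11.50 in KO T0, and 12.25, 12.30 and 12.28 in KO T6, with no overlap between times.

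The remaining departures were Hnrnpr 1438807_at in WT, at 1.27 (adjusted p = 0.0182), and Hnrnpa2b1 1434047_x_at in KO, at 0.49 (adjusted p = 0.0329, or 0.0981 with the replicate block). The 7 probe sets of Hnrnpab included 4 that rose in WT, by 0.42 to 0.53, so this rise was shared by several probe sets. It was not shared by all, with 1426114_at at -0.31 and 1459880_at at -0.08 in WT, neither of them called. The dim 1431349_at, with a mean level of 7.24, was higher by 0.59 in WT but was not called either (adjusted p = 0.124). In KO the 7 ran from -0.56 to 0.39. For the single-probe-set genes, among them Hnrnph3, Srsf9 and Srsf12, no such comparison can be made.

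**Figure D4:**
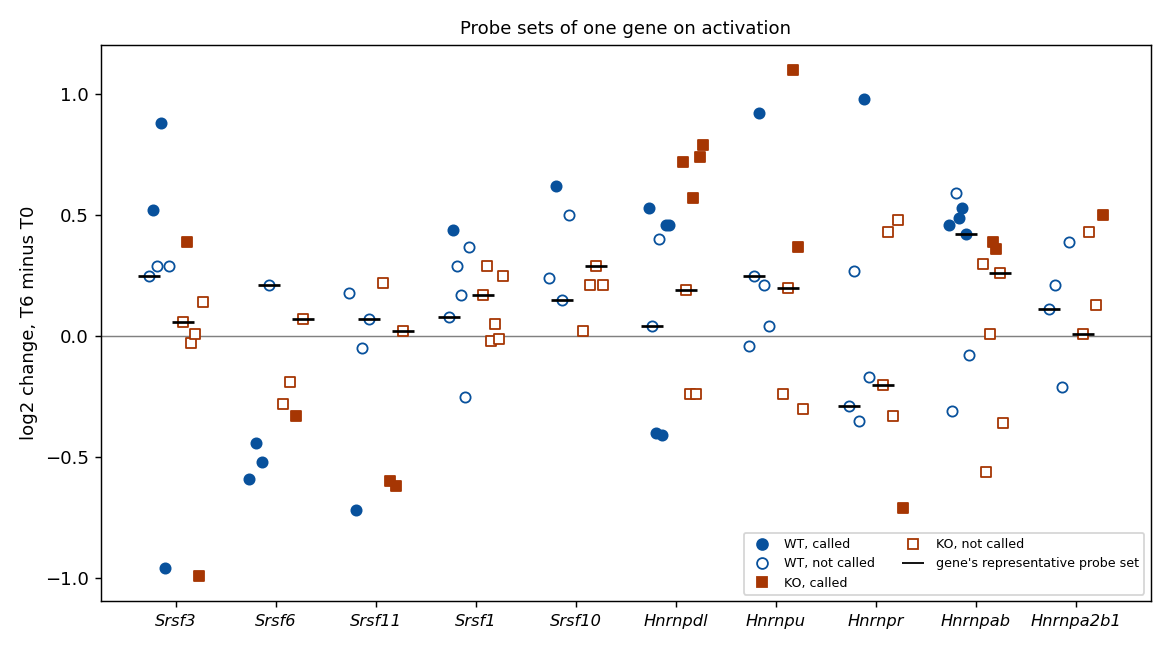
Change from T0 to T6 on the log2 scale of every tested probe set of 10 splicing factor genes in WT (circles) and KO (squares), filled where called, with a black line at the gene's representative (n = 3 arrays per group). Srsf3 spans -0.96 to 0.88 in WT, and Srsf6, Srsf11, Hnrnpdl and Hnrnpu also have called probe sets far from the line.

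The genotype was compared at each time. At T0 0 of the 29 genes were called, beside 0.038% of all genes, and 0 reached an unadjusted p under 0.05, beside 9.77%. Differences ran from -0.44 for Srsf12 (95% interval -1.18 to 0.29) to 0.26 for Hnrnpll (-0.09 to 0.60), and the median size was 0.05, beside 0.16 for all genes. The groups did not overlap for Srsf12 alone, lower in KO, or 3.45% beside 16.6% of all genes (8.51% lower). The KO T0 values of Srsf12 were 6.42, 5.76 and 6.40 and the WT T0 values 6.60, 6.84 and 6.45, near background as above. The lowest adjusted p was 0.591.

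At T6 0 of the 29 genes were called, beside 0.0988% of all genes, and 1 reached an unadjusted p under 0.05, beside 11.8%. That gene was Srsf5, an SR protein known as SRp40, which read 13.77, 13.70 and 13.92 in WT T6 and 13.49, 13.45 and 13.46 in KO T6. Its difference was -0.33 (95% interval -0.64 to -0.02, adjusted p = 0.396). The groups did not overlap for 7 genes, or 24.1% beside 18.8% of all genes: Srsf1 was higher in KO (10.8% of all genes were) and Hnrnpab, Hnrnpc, Hnrnpu, Srsf2, Srsf3 and Srsf5 were lower (8.01% of all genes were). Apart from Srsf5, the other 6 of these differences lay between -0.17 and 0.17. The median size was 0.10, beside 0.16 for all genes, and the B cell, myeloid and proliferation markers named above differed between the same groups.

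Among the 88 probe sets 0 were called at T0, beside 0.0163% of all, and 1 at T6, beside 0.477% (0.399% lower). It was 1452030_a_at of Hnrnpr, a relative of the Syncrip RNA-binding protein. It read 9.38, 9.48 and 9.72 in WT T0 and 9.37, 9.27 and 9.44 in WT T6. KO arrays gave 9.15, 9.15 and 9.29 at T0 and 8.44, 8.78 and 8.25 at T6. The KO T6 arrays lay below all 9 others, and KO T0 lay slightly below WT T0. The difference at T6 was -0.87 (SE 0.15, adjusted p = 0.0377), and its departure from the Hnrnpr representative was -0.98 (adjusted p = 0.0499), the 1 departure called at T6, beside 0.422% of all (0.352% downwards). At T0 0 departures were called, beside 0%, and the interaction called 0 probe sets and 0 departures, beside 0% of all. Within KO, 1452030_a_at fell on activation by 0.71 (adjusted p = 0.00733). The other 4 Hnrnpr probe sets differed at T6 by 0.11, -0.17, 0.25 and -0.47 and were not called. The call at T6 was kept in 11 of 22 alternatives, and was lost without any 1 of 9 arrays, the KO T6 replicates 1 and 3 among them.

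A probe set singled out after its values were seen is 1426114_at of Hnrnpab. It read 13.82, 13.92 and 14.22 in WT T0 and 13.48, 14.07 and 13.48 in WT T6, but 11.58, 13.03 and 12.93 in KO T0 and 11.41, 13.00 and 11.46 in KO T6. All 6 KO arrays lay below all 6 WT arrays, with a KO spread of over 1 log2 unit. The differences of -1.47 at T0 and -1.72 at T6 (SE 0.47 each) did not pass the adjusted test (adjusted p = 0.388 and 0.151). The other 6 Hnrnpab probe sets lay between -0.22 and 0.36 at T0 and between -0.50 and -0.08 at T6, with 1459880_at the lowest at both times (-0.22 and -0.50, adjusted p = 0.731 and 0.299).

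**Figure D5:**
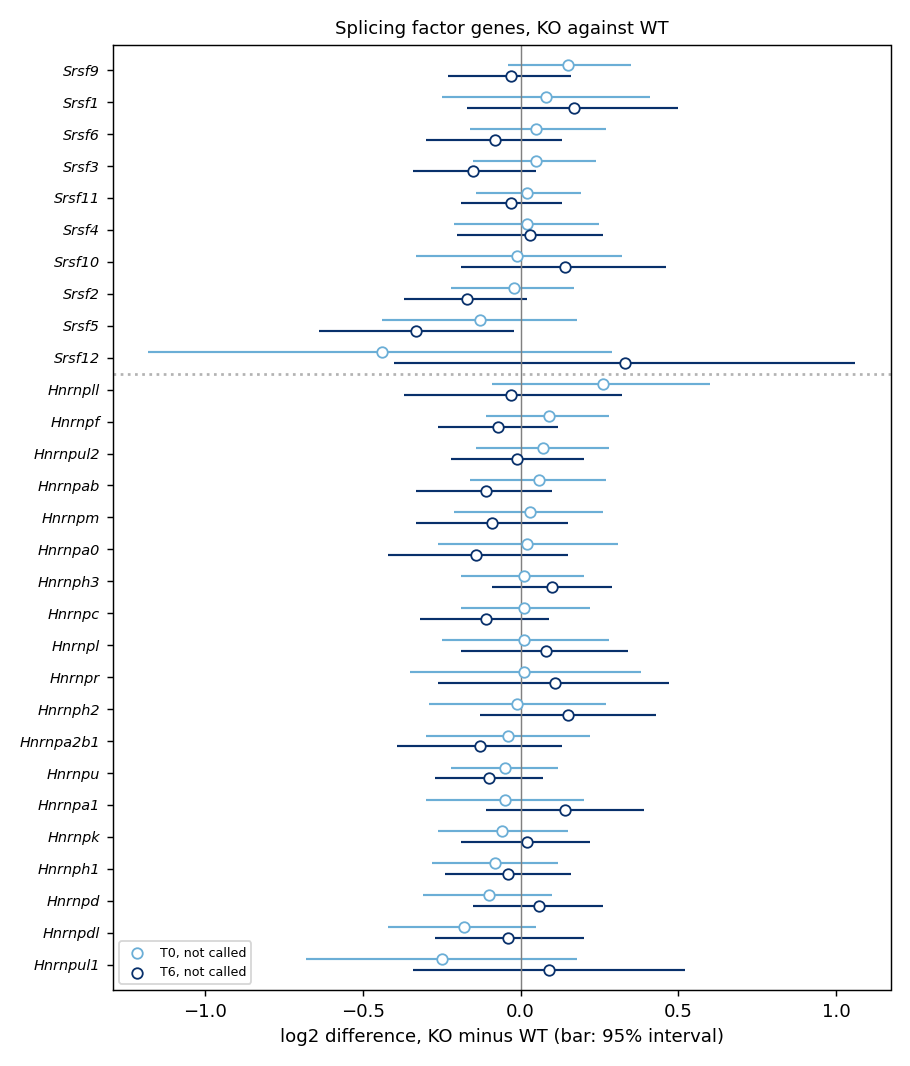
Difference of KO from WT on the log2 scale for the 29 genes at T0 (light blue) and T6 (dark blue), with the 95% interval as a bar (n = 3 arrays per group). None is called; the lowest values are -0.44 for Srsf12 at T0 and -0.33 for Srsf5 at T6.

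The other genes of the splicing machinery were taken from 5 lists. In WT 32 of the 135 tested list genes rose and 8 fell, and in KO 23 rose and 6 fell. These are 29.6% and 21.5% of them, beside 25.1% and 20.9% of all genes. With the mean of the probe sets taken per gene, 18 rose and 11 fell in WT, and 9 rose and 14 fell in KO, so the balance of directions turned in KO. With quantile normalization 24 rose and 11 fell in WT. In the main fit 0 list genes were called between genotypes, beside 0.038% of all genes at T0 and 0.0988% at T6. The interaction also called 0, beside 0%. Leaving out single WT arrays took the WT count of 40 to between 19 and 26, and single KO arrays took the KO count of 29 as low as 16. The snRNP and spliceosome core genes, which form the catalytic machinery on which SR proteins act, had 17 rises and 3 falls among 53 tested in WT and 13 rises and 1 fall in KO, or 37.7% and 26.4%, beside the 25.1% and 20.9% of all genes. Their median change was 0.20 in WT and 0.17 in KO, beside -0.06 and 0 for all genes. The largest called changes in WT were rises of Prpf31 (0.67, adjusted p = 0.00377), Snrpa1 (0.59, adjusted p = 0.0272) and Plrg1 (0.53, adjusted p = 0.00147) and falls of Dhx16 (-0.54, adjusted p = 0.00677), Prpf6 (-0.41, adjusted p = 0.00562) and Ddx23 (-0.40, adjusted p = 0.0281). Of 14 tested snRNP assembly genes 3 rose in WT, Strap by 0.60, Wdr77 by 0.41 and Smn1 by 0.29, and 2 in KO, with 0 falls and medians of 0.21 and 0.22. These are 21.4% and 14.3% of the list, below the shares over all genes.

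SR-related proteins and SR protein kinases moved in both directions, with 5 rises and 4 falls among 27 in WT and 3 and 3 in KO. These are 33.3% and 22.2%, beside 25.1% and 20.9% of all genes. The medians of this list were -0.04 and 0.03, beside -0.06 and 0 for all genes. The called genes that rose most in WT were Tnpo3, the import receptor of SR proteins (0.92, adjusted p = 0.0417), U2af1, the 3' splice site factor (0.64, adjusted p = 0.000664) and Luc7l3 (0.44, adjusted p = 0.0220). The largest called falls were Clk4 (-0.56, adjusted p = 0.00438) and Srpk2 (-0.41, adjusted p = 0.0322), kinases that phosphorylate SR proteins, and Rbm39 (-0.54, adjusted p = 0.00551). The lowest WT change of this list, -1.08, was not called. Of 32 other hnRNP-like genes and splicing regulators 6 rose and 1 fell in WT, and 3 rose and 2 fell in KO, or 21.9% and 15.6%, both below the shares over all genes, with medians of 0 and 0.01. The largest called changes in WT were rises of Fubp1 (0.89, adjusted p = 0.00106), Sfpq (0.49, adjusted p = 0.0222) and Rbm17 (0.49, adjusted p = 0.00274) and the fall of Mbnl3 (-0.62, adjusted p = 0.0249). Among 9 exon junction complex and decay genes 1 rose in WT, Rbm8a by 0.58 (adjusted p = 0.000626), and 2 rose in KO. These are 11.1% and 22.2%, beside 25.1% and 20.9% of all genes.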

How the data were processed

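RNA of 12 samples of mouse CD8 T cells was measured on Affymetrix expression arrays. The deposited values are linear signal intensities per probe set, made by the authors with GCOS, whose version, background step and summarisation are not given in the sources used here, per the submitters' processing notes and the table itself. On all arrays alike, signals from percentile 2 to percentile 98 averaged 500.003, which shows scaling per array by the authors, and low signals carry most of the noise. Of 45101 probe sets 64 were controls, 34945 had 1 gene symbol, 932 several and 9160 none. The number of arrays limits the precision.

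Values were taken as log2(signal + 16), which understates changes of dim genes, with no further normalization. A gene, represented by its 1-symbol probe set of highest mean, was kept if 3 or more arrays placed it over their percentile 40. Genes, probe sets (24543) and departures (11363) were each tested with limma 3.58.1 in R 4.3.3 (two-sided, Benjamini-Hochberg) in 1 fit of 4 groups over all arrays, for 5 comparisons, after the code was tested on simulated data. Groups came from the labels. The p-values measure the spread between arrays. The 6 arrays of a genotype must share mice if the 3 mice of the design text are all there were. After subtraction of group means, same-numbered arrays correlated at 0.18, 0.46 and 0.38 in KO and 0.23, -0.06 and -0.11 in WT, so the numbers were taken as pairs in KO, from the data and not the labels, and not in WT. Of differently numbered WT arrays, T0 replicate 3 with T6 replicate 2 reached 0.23 and T0 replicate 2 with T6 replicate 3 reached 0.20. The rest lay between -0.16 and -0.07. WT arrays may thus share mice in another order, and a fit with such pairs was not run. The values with replicate number as a block are given beside the KO results whose call they change.

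Members and lists were chosen with earlier results of these data known. The rule for named genes took array values of up to 5 called rises and falls in WT, genes called between genotypes and up to 4 genes with opposed called probe sets, and up to 3 rises and falls per list. Alternatives varied the added constant, normalization, filter, representative, fit and arrays used. No protein sequence was used here.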

Additional observations from a re-analysis of the deposited data

How the results depend on the processing

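Over 82 results for named genes and probe sets, each alternative kept the direction except in 3 cases. When probe sets were averaged per gene, Hnrnpr in WT went from -0.29 to 0.09 and Srsf6 in WT from 0.21 to -0.34. Without WT T6 replicate 1, Srsf12 in KO against WT at T6 went from 0.33 to -0.08, and without WT T6 replicate 2 to 0.69. Srsf3 1438215_at kept its call and sign in all 23 alternatives in both genotypes and Hnrnpab in WT in 23 of 24, while Hnrnpu kept its call in 13 of 24 and Hnrnpa1 in 11 of 24. Srsf12 in WT kept its call in the 23 of 24 alternatives that tested it. It passed the filter through its T0 arrays, where it was higher, so the alternatives that kept a filter share that dependence.

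The count of genes called in WT was 10 with a trend in the prior variance, in place of 6. In KO, in place of 2, it was 4 with the trend, 1 with median centring, 1 with a replicate block, and 0 with only the groups of the comparison or without both KO arrays of number 2. KO probe sets went from 19 to 12 with no filter, 9 with only the groups compared and 11 without both KO arrays of number 2. List genes went from 40 to 25 (WT) and 29 to 17 (KO) with no filter, and to 16 (KO) with only the groups compared. Departures went from 8 to 4 (WT) and 7 to 2 (KO) with only the groups compared, to 5 (WT) and 2 (KO) with the replicate block, and in KO to 4 with no filter, 12 with the filter at percentile 60 and 2 without both KO arrays of number 2. The 1 probe set called between genotypes at T6 became 0 with no filter or only the groups compared, and 2 with percentile 60 or the trend. Fewer arrays enter the fits of only the groups compared; otherwise the cause was not tested.

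With each array left out in turn, WT genes called ranged from 3 (without WT T0 replicate 2, WT T6 replicate 1 or WT T6 replicate 3) to 7 and KO genes from 1 (without KO T0 replicate 2 or 3) to 3. WT probe sets ranged from 17 to 25 and KO probe sets from 9 (without KO T6 replicate 3) to 19. List genes ranged from 19 (without WT T6 replicate 1) to 43 in WT and from 16 (without KO T0 replicate 1) to 25 in KO. Departures ranged from 4 (without WT T0 replicate 3 or WT T6 replicate 1) to 9 in WT and from 4 to 8 in KO, the lowest when WT T0 replicate 3, KO T6 replicate 3 or one of KO T0 replicates 2 and 3 was left out. Probe sets called at T6 between genotypes ranged from 0 to 1, and genes called between genotypes and in the interaction stayed at 0. With the replicate block 4 genes were called in WT, and among the KO calls given in the text it ended those beside which its adjusted p stands and no other. The fixed replicate block for KO against WT was not run, because a block within genotype removes the spread between mice that this comparison needs.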
